A study of Mus musculus with 8 samples.

Results

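The Postn-positive activated fibroblasts of mouse hearts after pressure overload were examined in 4 single-cell libraries and, through their genes, in 4 heart sections. They were selected on unnormalised UMI counts (unique molecular identifiers, each standing for 1 captured RNA molecule). A cell barcode was kept if it held 200 to 6000 genes and 500 to 30000 UMIs, with less than 15% of them mitochondrial. A kept cell entered the fibroblast gate with at least 1 Pdgfra UMI, at least 20 UMIs of Col1a1, Col1a2, Col3a1 and Dcn together, no Ptprc or Pecam1 UMI and fewer than 3 UMIs of Wif1, Ucma and Chad together. A gate cell with at least 2 Postn UMIs was a Postn-positive fibroblast. The rule gave 1706 Postn-positive fibroblasts among 7855 fibroblasts of the gate and 27053 kept cells. The 5608 fibroblasts of the gate with no Postn UMI, called Postn-zero fibroblasts here, served as the comparison. Because Postn UMIs chose the cells, every difference between these groups is a description of the same cells and was not tested.

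The study followed wild type male C57BL/6J mice aged 8 weeks after transverse aortic constriction (TAC), in which a silk ligature narrows the aortic arch and loads the left ventricle. Sham mice had the same surgery without the ligature. Hearts were taken 2, 4 and 6 weeks after TAC, giving 1 library and 1 section for sham and for each time, called TAC-2w, TAC-4w and, last, TAC-6w. Where 4 values follow each other they run from sham through TAC-2w and TAC-4w to TAC-6w. The time at which sham hearts were taken and the number of animals behind a library are not given in the sources used here. No transgene, reporter or Cre marked the cells, so that Postn here is the endogenous transcript. By the labels nuclei were prepared and by the methods collagenase-released cells, and the barcodes are called cells here without settling this.

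Cardiac fibroblasts make and maintain the collagen network of the heart wall. Under pressure overload or after injury a fraction of them becomes activated, secretes matrix and matricellular proteins and may gain contractile proteins. Postn (ENSMUSG00000027750) encodes periostin, a secreted matricellular protein that binds collagen and integrins, and its transcript is the customary mark of this activated state. Heart valve fibroblasts also make periostin, which is why cells rich in Wif1, Ucma or Chad were left out.

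Total depth was 86671674 UMIs in the sham library, 78587992 in TAC-2w, 48278486 in TAC-4w and 28793316 in TAC-6w. Postn-positive fibroblasts held a median of 12953.5, 15701.5, 14190 and 8162 UMIs per cell in that order, against 10106.5, 12014, 12036 and 5755 in Postn-zero fibroblasts. They were thus the deeper fibroblasts in each library, and the fibroblasts of TAC-6w were the shallowest, whereas over all kept cells the medians were 9250.5, 10856, 4484 and 4828 UMIs. A level is given as CPM, the UMIs of a gene per 1000000 UMIs, both summed over the cells of a group. The 95% intervals are exact Poisson for levels, exact conditional binomial for ratios and Clopper-Pearson for shares. They cover counting error only, and with 1 library per condition no difference between conditions could be tested against animals.

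The TAC-4w library stood apart before any Postn value was considered. Fibroblasts of the gate were 39.1% of kept cells in sham, 36.8% in TAC-2w and 35.7% in TAC-6w, but 3.81% in TAC-4w. It therefore gave 85 Postn-positive fibroblasts, against 544, 466 and 611 in sham, TAC-2w and TAC-6w. Each result is given by library so that it can be read with and without TAC-4w. By the labels the sham and TAC-6w libraries shared batch 3, TAC-2w was batch 1 and TAC-4w was batch 2. Batch and time after TAC cannot be told apart for TAC-2w and TAC-4w, whereas sham and TAC-6w share one by the labels. The study gives sham and TAC-2w another run label elsewhere, so that this shared batch is uncertain. Kept barcodes found in at least 2 libraries numbered 89, with 9 to 21 shared by any pair.

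The label of the cells was checked against fibroblast genes that the rule did not use. Lum, a collagen-binding proteoglycan of fibroblasts, was 1234, 1319, 3303 and 944 CPM in Postn-positive fibroblasts of the 4 libraries. Tcf21, a transcription factor of resident cardiac fibroblasts, was 183, 198, 88.6 and 125 CPM. Pdgfrb, a platelet-derived growth factor receptor of fibroblasts and mural cells, was 67.2, 86.5, 150.5 and 103 CPM. All these genes were thus measured in the Postn-positive fibroblasts of each library. Summed endothelial markers were at or below 11.8 CPM in each library.

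Postn-positive cells were a larger part of the fibroblasts after TAC in the late libraries. They were 16.9% of gate fibroblasts in sham (95% interval 15.6 to 18.3%), 19.5% in TAC-2w (17.9 to 21.1%), 33.1% in TAC-4w (27.4 to 39.2%) and 30.7% in TAC-6w (28.7 to 32.8%). The ratio to sham was 1.15 (1.01 to 1.3) at 2 weeks, 1.95 (1.54 to 2.46) at 4 weeks and 1.81 (1.61 to 2.04) at 6 weeks. TAC-4w and TAC-6w lay above sham and TAC-2w, and their own intervals overlapped. Without TAC-4w the order was sham, TAC-2w and TAC-6w. Of all kept cells they were 6.61%, 7.17%, 1.26% and 11%, so that TAC-4w went from highest to lowest when the denominator was every cell type.

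**Figure D1:**
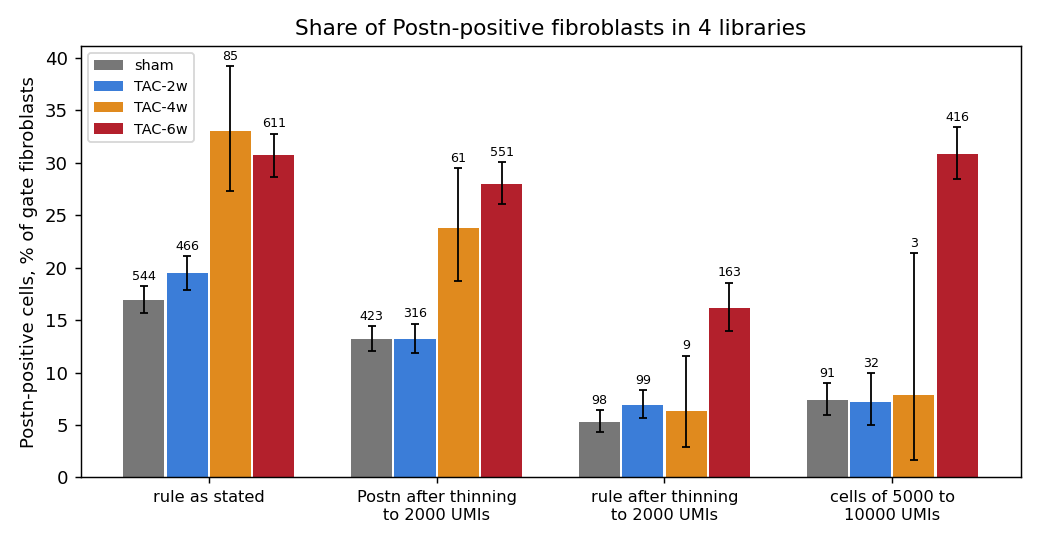
Share of Postn-positive cells among gate fibroblasts (vertical axis, percent) in each library, with the rule as given and after 3 treatments of sequencing depth. Bars are shares and error bars 95% Clopper-Pearson intervals. TAC-6w stands above sham in each treatment (30.7% against 16.9% with the rule as given), while TAC-4w does so clearly only with the rule as given and after thinning within the gate.

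Depth sets how many cells reach 2 Postn UMIs, so the shares were taken again with depth limited in 3 ways. With each cell thinned to 2000 UMIs before the rule, the shares were 5.32%, 6.89%, 6.29% and 16.2% for the 4 libraries, from 98, 99, 9 and 163 cells. With the gate set on all UMIs and at least 1 Postn UMI asked for after thinning, they were 13.2%, 13.2%, 23.8% and 28.0%. Among cells of 5000 to 10000 UMIs they were 7.38%, 7.17%, 7.89% and 30.9%, but this window is not equal depth, as it held 91, 32, 3 and 416 Postn-positive cells and so the shallow part of 3 libraries and the bulk of TAC-6w. TAC-6w stayed above sham at 3.04, 2.12 and 4.18 times its share. TAC-2w stood at 1.3, 1.00 and 0.972 times sham, and TAC-4w at 1.18, 1.80 and 1.07 times, the last resting on 3 cells.

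Most Postn-positive fibroblasts held more than the minimum of Postn UMIs. The lowest, median and highest Postn count per cell was 2, 7 and 157 UMIs in sham, 2, 8 and 223 in TAC-2w, 2, 6 and 114 in TAC-4w and 2, 8 and 153 in TAC-6w. Cells with 10 or more Postn UMIs were 40.6% of the Postn-positive fibroblasts in sham, 42.5% in TAC-2w, 22.4% in TAC-4w and 44.5% in TAC-6w. TAC-4w thus had a high share of Postn-positive cells but the fewest with many Postn UMIs. As a share of gate fibroblasts, cells with 10 or more Postn UMIs were 6.87%, 8.27%, 7.39% and 13.7%, so that TAC-6w alone stood apart in this class.

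**Figure D2:**
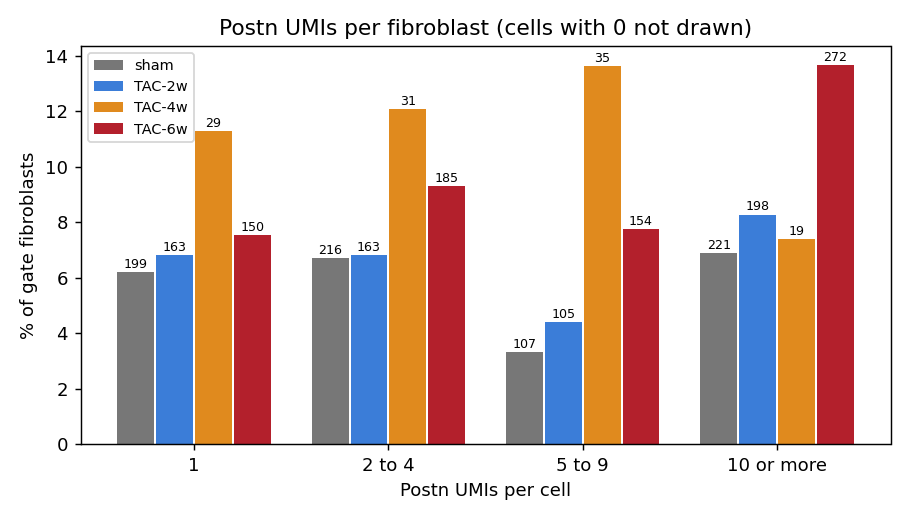
Fibroblasts of the gate (vertical axis, percent) with 1, 2 to 4, 5 to 9 and 10 or more Postn UMIs per cell (horizontal axis) in each library, cells with 0 not drawn. The class of 10 or more reached 13.7% in TAC-6w and 6.87 to 8.27% in the other libraries, while TAC-4w led the classes below it.

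At the threshold itself, 115, 83, 15 and 97 cells of the 4 libraries had exactly 2 Postn UMIs, and 199, 163, 29 and 150 had exactly 1 and stayed outside. Cells with exactly 2 held 164, 138, 141 and 287 CPM of Postn and cells with exactly 1 held 90.2, 78.0, 71.0 and 152 CPM. Postn-positive fibroblasts as a whole held 1016, 1144, 643 and 1733 CPM. B cells, which should lack Postn, were taken as the background of free RNA. Their Postn level was 2.43, 6.13, 1.24 and 54.6 CPM. Neutrophils held 2.25, 0, 0.437 and 10.7 CPM, so that both were highest in TAC-6w but differed several-fold there. The TAC-6w level of B cells came from 11 of 345 cells, 4 of which had at least 2 Postn UMIs, so that few cells set it. At least 1 Postn UMI was found in 1.07% of 187 sham B cells (median 3336 UMIs), 2.21% of 136 in TAC-2w (3871 UMIs), 0.344% of 2323 in TAC-4w (4548 UMIs) and 3.19% of 345 in TAC-6w (2062 UMIs). At least 2 were found in 0%, 0.735%, 0.0861% and 1.16% of them, where 0 of 187 cells allows a share of up to 1.60% with 3 cells as the floor and of 1.95% by the Clopper-Pearson limit. These shares were far below those of gate fibroblasts, although B cells were also shallower. Endothelial cells, with at least 1 Pecam1 UMI and no Ptprc or Pdgfra UMI, reached 2 Postn UMIs in 17.0%, 12.0%, 1.05% and 8.01% of cells, so that Postn was not limited to fibroblasts in these libraries.

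Against Postn-zero fibroblasts of the same library, a small part of the transcriptome differed by 2-fold or more. In sham, 210 of 11757 genes with at least 50 UMIs were at least 2-fold higher in Postn-positive fibroblasts (1.79%) and 208 at least 2-fold lower (1.77%). In TAC-2w 252 of 11633 were higher (2.17%) and 222 lower (1.91%), and in TAC-6w 240 of 10090 were higher (2.38%) and 338 lower (3.35%). In TAC-4w, with fewer cells, 99 of 6836 were higher (1.45%) and 137 lower (2%). Genes on the same side in each of the 4 libraries were 14 higher (0.206% of 6790) and 13 lower (0.191%), and without TAC-4w they were 76 (0.756% of 10053) and 54 (0.537%). With both groups thinned to 2000 UMIs per cell they were 5 and 3. Without the cell with the most UMIs of each gene in each group they were 12 and 19, which held 11 of the 14 and 13 of the 13.

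Of the 14 shared higher genes, 8 encode matrix proteins, namely Aspn, Cilp, Col12a1, Col8a1, Comp, Cthrc1, Fmod and Ltbp2. The share of matrix protein genes among all genes compared was not counted, so that no excess can be read from this. Timp1 encodes an inhibitor of matrix metalloproteinases. Inhba encodes the activin A subunit, a ligand of the TGF-beta family, Tnfrsf12a the receptor of the cytokine TWEAK and Tagln an actin-binding protein. Ecrg4 was among them too. The 13 shared lower genes were Ccl11 and Cxcl14, which encode chemokines, Col6a6 and Spon1, which encode matrix proteins, the enzyme genes Ces1d, Dpep1, Ggt5, Hsd11b1, Inmt and Sult5a1, the transporter gene Slco2b1 and the interferon-inducible Ifi205 and Ifi207.

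The 12 named higher and 8 named lower genes were chosen to lie on the same side of 1 in each library. That their direction was shared by the libraries was thus set by the choice, whereas the size of the ratio was not. Among secreted matrix genes, Cilp was several times higher in each library. Cilp, a fibroblast glycoprotein first known from cartilage, was 425, 635, 361 and 1029 CPM in Postn-positive and 64.0, 67.1, 109.7 and 119 CPM in Postn-zero fibroblasts of the 4 libraries. The ratios were 6.64 (6.25 to 7.05), 9.45 (8.91 to 10.0), 3.29 (2.79 to 3.91) and 8.64 (8.04 to 9.29). Postn-positive fibroblasts were higher in each library, with the highest level in TAC-6w and the smallest ratio in TAC-4w. At 2000 UMIs per cell, at least 1 Cilp UMI was found in 31.8%, 38.2%, 27.1% and 60.7% of Postn-positive and in 6.06%, 5.75%, 10.5% and 10.4% of Postn-zero fibroblasts, and without thinning in 50.7%, 58.8%, 45.9% and 76.6% against 14.1%, 15.6%, 18.9% and 17.3%.

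Cthrc1, a secreted collagen triple helix repeat protein known from injured tissue, was 17.8, 30.8, 92.5 and 18.6 CPM in Postn-positive and 2.27, 2.74, 27.0 and 0.550 CPM in Postn-zero fibroblasts. Its ratios were 7.85 (5.73 to 10.9), 11.3 (8.43 to 15.3), 3.42 (2.44 to 4.87) and 33.8 (12.8 to 127). The TAC-6w ratio was the largest, as Postn-zero fibroblasts held almost no Cthrc1 there, while the level in Postn-positive fibroblasts was close to that of sham. Its UMIs came from 46, 35, 33 and 21 cells, a minor part of the Postn-positive fibroblasts outside TAC-4w.

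Ltbp2, a fibrillin-associated protein of the latent TGF-beta binding family, was 85.1, 123, 328 and 217 CPM in Postn-positive and 8.91, 13.1, 144 and 18.4 CPM in Postn-zero fibroblasts. The ratios were 9.55 (8.20 to 11.2), 9.35 (8.18 to 10.7), 2.28 (1.95 to 2.67) and 11.8 (9.85 to 14.2). TAC-4w had the highest level in both groups and the smallest ratio.

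Comp, a pentameric protein that bridges collagen fibres, was 90.8, 117, 2869 and 277 CPM in Postn-positive and 30.7, 28.0, 522 and 64.2 CPM in Postn-zero fibroblasts, with ratios of 2.95, 4.2, 5.49 and 4.31. Fmod, a small proteoglycan that guides collagen fibril growth, was 10.3, 24.1, 231 and 43.6 CPM against 3.75, 2.92, 79.4 and 8.94 CPM, with ratios of 2.75, 8.26, 2.91 and 4.88. Both genes were at their highest in TAC-4w in either group of fibroblasts. In sham, 55.8% of the Fmod UMIs came from 1 of the 13 cells that held any, and without the highest cell of each group its ratio was 1.40, under 2-fold. Among cells of 5000 to 10000 UMIs, where sham and TAC-6w could be compared, the mean log2 ratio of Fmod turned to -0.58.

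Genes for hormone handling and secreted signals followed. Dio2, the deiodinase that activates thyroid hormone inside cells, was 54.3, 72.7, 52.5 and 76.1 CPM in Postn-positive and 11.8, 9.18, 31.3 and 5.77 CPM in Postn-zero fibroblasts, with ratios of 4.62, 7.92, 1.68 and 13.2. The sham ratio was smaller than those of TAC-2w and TAC-6w, and TAC-4w had the smallest.

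Tnfrsf11b, the decoy receptor osteoprotegerin, was 13.8, 16.5, 99.5 and 12.9 CPM in Postn-positive and 1.33, 1.39, 68.1 and 1.24 CPM in Postn-zero fibroblasts, with ratios of 10.4, 11.9, 1.46 and 10.4. Clu, the extracellular chaperone clusterin, was 28.9, 43.6, 119 and 34.2 CPM against 9.46, 7.28, 70.2 and 3.02 CPM, with ratios of 3.06, 5.99, 1.70 and 11.3. In TAC-4w both genes were high in Postn-zero fibroblasts as well. Ccl2, a chemokine that draws monocytes, was 199, 106, 1093 and 111 CPM against 137, 59.5, 1.62 and 85.9 CPM, with ratios of 1.46, 1.78, 675 (230 to 3275) and 1.3. The TAC-4w level of Ccl2 came from 6 cells, 1 of which held 94.6% of its UMIs, and without the highest cell of each group the ratio was 54.9.

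Of the 2 cytoskeletal genes among the named higher genes, Nes, the intermediate filament nestin, was 28.2, 30.8, 40.0 and 35.1 CPM in Postn-positive and 5.08, 5.75, 20.5 and 7.29 CPM in Postn-zero fibroblasts, with ratios of 5.56, 5.36, 1.95 and 4.82. Tagln, an actin-binding protein of smooth muscle and myofibroblasts, was 163, 107, 94.0 and 207 CPM against 54.7, 42.8, 21.6 and 30.4 CPM, with ratios of 2.97, 2.51, 4.35 and 6.83. Tagln was higher in each library, although 1 cell held 38.9% of its sham UMIs and 1 cell 34.2% of its TAC-4w UMIs, and without the highest cells the ratios were 2.31, 4.41, 3.38 and 6.80.

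**Figure D3:**
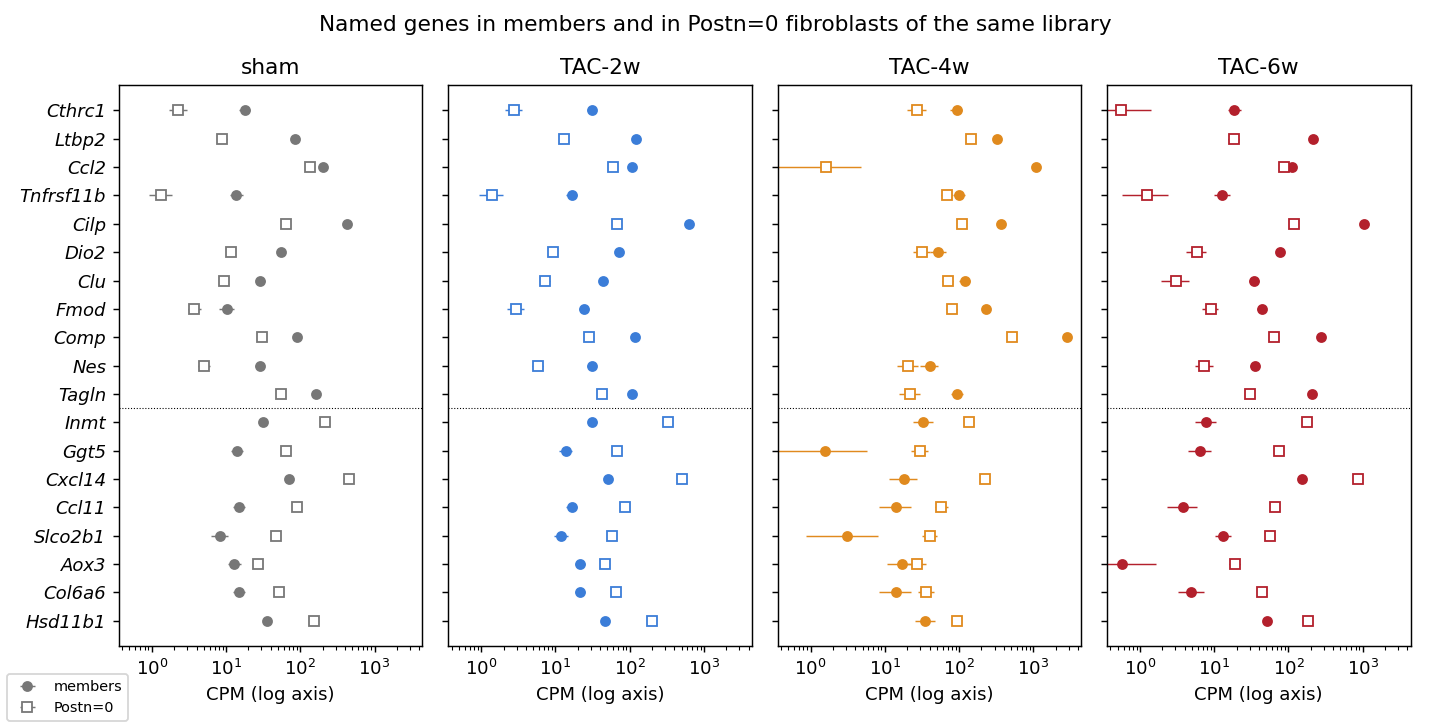
Levels (horizontal axes, CPM on a log axis) of 11 of the 12 named higher genes and, below the dotted line, the 8 named lower genes, in Postn-positive fibroblasts (members, filled circles) and Postn-zero fibroblasts (Postn=0, open squares) of each library. Bars are exact Poisson 95% intervals. Filled circles lie to the right of open squares for the upper genes and to the left for the lower genes in each panel, for example Cilp at 425 against 64.0 CPM and Cxcl14 at 71.5 against 455 CPM in sham.

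The 8 named lower genes included enzymes, chemokines, a transporter and a collagen chain. Inmt, a methyltransferase for small amines, was 31.7, 31.5, 32.9 and 7.78 CPM in Postn-positive and 213, 329.8, 135 and 175 CPM in Postn-zero fibroblasts of the 4 libraries. It was 6.73, 10.5, 4.09 and 22.5 times lower in Postn-positive fibroblasts. Ggt5, a glutamyltransferase that acts on leukotrienes, was 14.2, 13.7, 1.57 and 6.45 CPM against 64.7, 66.9, 29.7 and 75.2 CPM, with ratios of 0.219, 0.205, 0.0528 (0.00623 to 0.200) and 0.0858. Only 2 UMIs stand behind the TAC-4w value of Ggt5, whereas Inmt was lower by a wide margin in each library.

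Cxcl14, a chemokine of resident fibroblasts, was 71.5, 51.7, 18.0 and 154 CPM in Postn-positive and 455, 502, 224 and 867 CPM in Postn-zero fibroblasts, with ratios of 0.157, 0.103, 0.0806 and 0.178. Ccl11, the eosinophil chemokine eotaxin, was 15.0, 16.5, 14.1 and 3.80 CPM against 91.3, 87.0, 57.8 and 66.0 CPM, with ratios of 0.164, 0.19, 0.244 and 0.0575. Both chemokines were several times lower in Postn-positive fibroblasts of each library. At 2000 UMIs per cell Cxcl14 was found in 3.86%, 3.65%, 2.35% and 9.05% of Postn-positive and 20.8%, 21.5%, 5.59% and 26.9% of Postn-zero fibroblasts, and without thinning the sham shares were 8.46% and 27.5%.

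Hsd11b1, which regenerates active glucocorticoid inside cells, was 36.1, 46.7, 35.3 and 52.0 CPM in Postn-positive and 152, 201, 92.4 and 186 CPM in Postn-zero fibroblasts, with ratios of 0.238, 0.233, 0.382 and 0.280. Slco2b1, an organic anion transporter, had ratios of 0.178, 0.204, 0.0784 and 0.229, and Col6a6, a chain of collagen VI, had ratios of 0.296, 0.332, 0.390 and 0.114. Aox3, an aldehyde oxidase, had ratios of 0.475, 0.475, 0.638 (0.368 to 1.07) and 0.0302. Of these 8 genes, Aox3 in TAC-4w was the single value whose interval reached 1.

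Within the gate, some of these genes followed the number of Postn UMIs per cell. The named genes were chosen by their ratio of Postn-positive to Postn-zero fibroblasts, so that part of this was set by the choice. No count over all genes compared was made. Of the 12 named higher genes, 3 were higher at each step in at least 3 libraries, 2 in 2 libraries, 3 in 1 library and 4, namely Cthrc1, Ccl2, Fmod and Tagln, in none. Of the 8 named lower genes, 1 was lower at each step in 3 libraries, 3 in 2, 2 in 1 and the chemokine genes Cxcl14 and Ccl11 in none. Over cells with 0, 1, 2 to 4, 5 to 9 and 10 or more Postn UMIs, Ltbp2 was 8.91, 14.5, 31.1, 56.8 and 138 CPM in sham and 18.4, 74.0, 82.8, 183 and 299.5 CPM in TAC-6w. Cilp was 64.0, 109, 173, 258 and 687 CPM in sham and 119, 402, 453, 920.3 and 1361 CPM in TAC-6w. Ltbp2, Cilp and the transcription factor gene Meox1 were higher at each step in 3 libraries, TAC-4w being the exception. Col6a6 was lower at each step in 3 libraries, and Inmt, Ggt5 and Slco2b1 in 2. Cells with more Postn UMIs were also deeper, with a median of 14836 UMIs in the highest class and 10106.5 in the lowest in sham. The part of depth in these steps was not tested.

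Thbs4, a thrombospondin of the matrix, was found mainly in the cells with most Postn. In Postn-positive fibroblasts it was 21.8, 55.6, 21.2 and 207 CPM in the 4 libraries, and in Postn-zero fibroblasts 0.860, 0.927, 0 and 3.02 CPM. The ratios were 25.4 in sham, 60.0 in TAC-2w and 68.4 in TAC-6w. In cells with 10 or more Postn UMIs it reached 46.7, 103, 89.7 and 351 CPM, against 0.760, 9.36, 0 and 19.9 CPM in those with 2 to 4. It was found in 23, 40, 3 and 114 Postn-positive cells, so that the TAC-4w value rests on few cells.

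The gene lists below were compared by the number of genes past 2-fold and by the median ratio of Postn-positive to Postn-zero fibroblasts. Over all genes tested that median was 1.05, 1.05, 0.967 and 1.06 in the 4 libraries. Fibroblast activation markers, 12 genes, were at least 2-fold higher for 6 of 11 genes in sham, 6 of 11 in TAC-2w, 4 of 9 in TAC-4w and 7 of 11 in TAC-6w, with medians of 2.68, 2.02, 1.68 and 2.85. This list includes Cthrc1 and Ltbp2, whose values are given above. Meox1, a transcription factor of activated fibroblasts, was 253, 281, 155 and 341 CPM against 94.4, 87.2, 109 and 139 CPM, with ratios of 2.68, 3.23, 1.43 and 2.46. Tnc, the matricellular protein tenascin C, was 19.0, 15.2, 27.4 and 30.0 CPM against 1.09, 1.11, 4.32 and 2.89 CPM, with ratios of 17.4, 13.7, 6.35 and 10.4. Without the highest cell of each group the Tnc ratios were 17.4, 11.5, 22.0 and 38.1. Ddah1, an enzyme that degrades methylated arginine, had ratios of 6.85, 6.47, 2.18 and 19.3, the TAC-4w value resting on 6 UMIs and falling to 1.94 without the highest cells. Fap, the membrane protease fibroblast activation protein, had ratios of 0.914, 0.787, 2.11 and 1.27. The markers did not form 1 block, as Fap was close in both groups outside TAC-4w, whereas Tnc was higher in each library and Ddah1 clearly so only outside TAC-4w. Meox1 was higher in 3 libraries by level and by share of cells, but in TAC-4w it was found in 30.6% of Postn-positive and 34.3% of Postn-zero fibroblasts, and its level there exceeded that of Postn-zero fibroblasts clearly only in the 19 cells with 10 or more Postn UMIs, at 415 CPM.

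**Figure D4:**
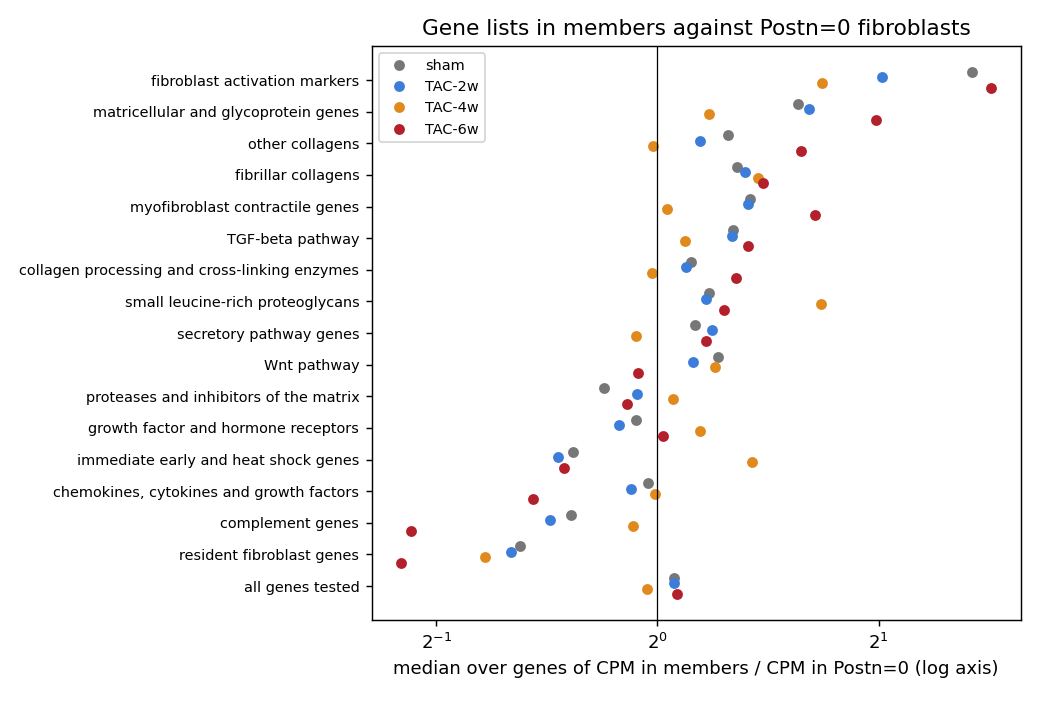
Median over the genes of each list of the ratio of CPM in Postn-positive fibroblasts (members) to CPM in Postn-zero fibroblasts (Postn=0), on a log axis, 1 point per library. Activation markers lie to the right of 1 in each library (1.68 to 2.85) and resident fibroblast genes to the left (0.449 to 0.650).

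Collagens outside the rule were mixed. The collagens of the rule itself, which were used in the selection as a sum, had ratios of 1.42, 1.37, 1.51 and 1.46 for Col1a1 and 1.65, 1.57, 1.48 and 1.65 for Col3a1, while Dcn, encoding the proteoglycan decorin, had ratios of 0.8, 0.743, 1.23 and 0.820. The fibrillar Col5a1 had ratios of 1.28, 1.32, 1.29 and 1.39. Of 12 other collagens, 3 of 12 in sham, 3 of 12 in TAC-2w, 4 of 11 in TAC-4w and 4 of 12 in TAC-6w were at least 2-fold higher and none of them 2-fold lower, with medians of 1.25, 1.14, 0.986 and 1.57. Col6a6, which is not on this list, was at least 2-fold lower in each library, as given above. Col8a1, a short-chain collagen, was 674, 953, 572 and 1492 CPM against 208, 244, 218 and 322 CPM, with ratios of 3.24, 3.90, 2.63 and 4.63. Col12a1, which decorates collagen fibrils, had ratios of 3.2, 2.58, 4.06 and 5.50. Col4a1 of the basement membrane had ratios of 0.812, 0.972, 0.745 and 1.31. In TAC-6w 11 of the 12 other collagens lay above 1, and in TAC-4w 5 of 11.

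Matricellular and glycoprotein genes, 25 in the list, were at least 2-fold higher for 6 of 23, 8 of 24, 4 of 21 and 12 of 24 genes, with medians of 1.55, 1.61, 1.18 and 1.98. Sparc, a collagen-binding matricellular protein, was 5013, 5751, 6018 and 5517 CPM in Postn-positive and 3106, 3534, 4189 and 2252 CPM in Postn-zero fibroblasts, with ratios of 1.61, 1.63, 1.44 and 2.45. Ccn2, the connective tissue growth factor, was 919, 1293, 3086 and 1939.8 CPM against 377, 428, 1669 and 532 CPM, with ratios of 2.44, 3.02, 1.85 and 3.65. Thbs2, another thrombospondin, went the other way with ratios of 0.538, 0.472, 0.736 and 0.396. Small proteoglycans were mixed, since Aspn had ratios of 2.91, 3.25, 2.91 and 3.14 while Omd, encoding osteomodulin, had 0.957, 0.767, 1.75 and 0.838.

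Enzymes that modify and cross-link collagen were close to parity, with medians of 1.11, 1.09, 0.985 and 1.28 over 13 to 15 genes. P4ha3, a prolyl hydroxylase subunit, was an exception in 3 libraries with ratios of 9.67, 4.63, 1.04 and 5.52, at levels of 3.04 to 6.43 CPM. Loxl2, a lysyl oxidase, had ratios of 1.81, 2.08, 0.906 and 2.56. Proteases of the matrix and their inhibitors had medians of 0.847, 0.938, 1.05 and 0.91, and only Timp1, an inhibitor of metalloproteinases, was at least 2-fold higher among the 13 to 17 genes compared in each library, at 552, 359.8, 625 and 542 CPM against 172, 151, 265 and 256 CPM. In TAC-4w 1 cell held 54.2% of its UMIs, and without the highest cell of each group the Timp1 ratio there was 1.14 and no longer past 2-fold. Mmp3, the protease stromelysin, had ratios of 0.852, 0.805, 1.38 and 0.262. Secretory pathway genes had medians of 1.13, 1.19, 0.935 and 1.16, and 0 of 20 passed 2-fold in either direction in any library.

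Contractile genes of myofibroblasts were higher in part. Of 12 genes, 4 of 12, 2 of 11, 1 of 11 and 3 of 11 were at least 2-fold higher, with medians of 1.34, 1.33, 1.03 and 1.64. Acta2, the smooth muscle actin of myofibroblasts, was 172, 55.6, 44.7 and 93.7 CPM in Postn-positive and 55.6, 40.3, 96.2 and 11.3 CPM in Postn-zero fibroblasts, with ratios of 3.10, 1.38, 0.465 and 8.31. It was thus on opposite sides of 1 in TAC-4w and in the other libraries. Single cells weighed on these ratios, which were 2.07 in sham, 3.70 in TAC-2w, 0.656 in TAC-4w and 5.01 in TAC-6w without the highest cell of each group. Cnn1, a calponin of smooth muscle, was 6.56, 0.400, 1.57 and 3.80 CPM, each from 2 to 4 cells. At 2000 UMIs per cell Acta2 was found in 5.70%, 6.65%, 4.71% and 4.11% of Postn-positive and 3.13%, 2.62%, 9.09% and 1.82% of Postn-zero fibroblasts. Without thinning it was found in 21.9%, 27.0%, 30.6% and 10.5% against 9.67%, 11.8%, 24.5% and 4.15%, so that most Postn-positive fibroblasts had no Acta2 UMI. In TAC-4w the share in Postn-positive fibroblasts was thus the lower one after thinning and the higher one without it.

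The TGF-beta pathway, which drives fibroblast activation, was slightly higher as a list of 27 genes, least so in TAC-4w. Its medians were 1.27, 1.27, 1.09 and 1.33, beside 1.05, 1.05, 0.967 and 1.06 over all genes. At least 2-fold higher were 4, 4, 3 and 4 genes, beside 1.79%, 2.17%, 1.45% and 2.38% of all genes. Above 1 lay 21, 21, 15 and 18 of the 27, and 1 gene in TAC-6w was at least 2-fold lower. Among the ligands, Tgfb1 was 96.0, 94.8, 68.2 and 213 CPM against 51.2, 43.5, 49.7 and 94.9 CPM, with ratios of 1.88, 2.18, 1.37 and 2.25. Inhba was 64.7, 48.4, 105 and 68.9 CPM against 31.4, 22.5, 44.3 and 18.4 CPM, with ratios of 2.06, 2.15, 2.37 and 3.74. In TAC-4w 53.7% of the Inhba UMIs were in 1 cell, and without the highest cells its ratio there was 1.19. Tgfb2 stayed closer to parity, with ratios of 1.29, 1.24, 1.09 and 0.927. Among the inhibitors, Smad7 had ratios of 1.27, 1.22, 1.26 and 0.816 and Smad6 of 2.57, 1.64, 1.22 and 0.480. In the Wnt list of 22 genes, 2 of 19, 3 of 19, 3 of 16 and 1 of 15 were at least 2-fold higher, among them the secreted protein gene Dkk3 in 3 libraries, with ratios of 2.91, 2.93, 2.02 and 1.63. Growth factor and hormone receptors had medians of 0.935, 0.887, 1.14 and 1.02.

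Complement genes were lower in Postn-positive fibroblasts of TAC-6w and in part of TAC-2w, and chemokine and cytokine genes were mixed. Complement genes had medians of 0.764, 0.714, 0.927 and 0.463, with 0 of 10, 3 of 10, 1 of 9 and 5 of 9 at least 2-fold lower and none 2-fold higher. C3, the central complement component, was 647, 373, 647 and 274 CPM in Postn-positive and 1121, 1149, 863 and 1377 CPM in Postn-zero fibroblasts, with ratios of 0.577, 0.325, 0.749 and 0.199. Of 22 genes for chemokines, cytokines and growth factors, 2 of 20, 3 of 20, 3 of 17 and 8 of 20 were at least 2-fold lower and 2, 1, 4 and 1 at least 2-fold higher. Cxcl1, a neutrophil chemokine, was 618, 619, 213 and 206 CPM against 1062, 964, 215 and 774 CPM, with ratios of 0.582, 0.642, 0.992 and 0.267. Il11, a profibrotic cytokine, went the other way in 3 libraries with ratios of 4.2, 3.04 and 5.18, and had 1 UMI in TAC-4w. The TAC-6w library showed the widest difference in these lists.

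Resident fibroblast genes were lower as a list. Of 18 genes, 5, 6, 6 and 10 were at least 2-fold lower in the 4 libraries, with medians of 0.650, 0.632, 0.583 and 0.449. This list holds Cxcl14, Hsd11b1 and Inmt, whose values are given above. Dpep1, a membrane dipeptidase, was 575, 706, 223 and 372 CPM against 1254, 1469.9, 668 and 1170 CPM, with ratios of 0.458, 0.480, 0.333 and 0.318. Scara5, a ferritin receptor of adventitial-type fibroblasts, had ratios of 0.631, 0.516, 0.622 and 0.436, whereas Pi16, another adventitial-type marker, had ratios of 1.22, 1.23, 0.471 and 1.41. Pi16 transcript was thus as high in Postn-positive as in Postn-zero fibroblasts outside TAC-4w. Gdf10, a TGF-beta family ligand of another fibroblast group of these hearts, was 14.1, 16.4, 538 and 1.71 CPM against 21.0, 27.0, 188 and 8.94 CPM. Pla1a, a phospholipase of the fibroblasts rich in Cxcl14, was 189, 144, 39.2 and 197 CPM against 163, 141, 101 and 148 CPM. Pla1a thus did not follow Cxcl14 outside TAC-4w, whereas in TAC-4w both were lower in Postn-positive fibroblasts.

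The Wif1, Ucma and Chad limit kept out 50, 53, 23 and 8 fibroblasts with at least 2 Postn UMIs in the 4 libraries. Valve and tendon-like matrix genes were nevertheless among the higher genes of the Postn-positive fibroblasts. At least 2-fold higher were 4 of 5, 4 of 6, 2 of 5 and 4 of 6 of them, with medians of 2.95, 4.25, 1.37 and 3.72. Prg4, the lubricating proteoglycan of joints and tendon sheaths, was 436, 326, 206 and 207 CPM against 91.6, 75.7, 151 and 64.3 CPM, with ratios of 4.75, 4.30, 1.37 and 3.21. Scx, the tendon transcription factor scleraxis, was 2.94, 6.80, 0.784 and 15.6 CPM and came from 5, 17, 1 and 34 cells. Whether valve fibroblasts below the limit took part in these values was not tested.

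Cell cycle genes differed in TAC-2w and TAC-6w. Summed over all 14 genes of the list they were 109, 133, 65.8 and 193 CPM in Postn-positive and 88.4, 62.8, 68.1 and 64.9 CPM in Postn-zero fibroblasts, with ratios of 1.23, 2.12, 0.967 and 2.97. Pcna, a clamp of DNA polymerase and the most abundant of them, had ratios of 1.03, 1.22, 1.01 and 0.88. Top2a, a topoisomerase of dividing cells, was 2.81, 10.4, 0 and 23.2 CPM in Postn-positive and 4.97, 0.649, 0.540 and 0.687 CPM in Postn-zero fibroblasts. In TAC-6w these Top2a UMIs came from 15 of 611 cells and in TAC-2w from 11 of 466, 1 of which held 83.3% of them. Cells with at least 3 UMIs of the list were 10.1%, 17.0%, 7.06% and 5.24% of Postn-positive and 4.25%, 4.93%, 5.59% and 0.814% of Postn-zero fibroblasts without thinning. In TAC-2w and TAC-6w a small number of cells thus carried Top2a, while cells with at least 3 UMIs of the list were more numerous. At 2000 UMIs per cell, at least 1 UMI of the list was found in 15.6%, 17.4%, 10.6% and 11% of Postn-positive and 11.9%, 10.7%, 12.6% and 12.9% of Postn-zero fibroblasts, and without thinning in 60.7%, 67.8%, 61.2% and 41.6% against 47.8%, 52.4%, 58.7% and 31.2%. In TAC-6w the share of cells with any such UMI was thus higher in Postn-positive fibroblasts without thinning and not after it. Immediate early and heat shock genes had medians of 0.767, 0.732, 1.35 and 0.747, TAC-4w being on the other side of 1.

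Markers of other cell types were measured in the same sums. Of 6 neutrophil markers, 5 were detected in sham, where they summed to 301 CPM in Postn-positive and 7.00 CPM in Postn-zero fibroblasts. Their most abundant gene was S100a9 at 162 CPM, Cxcr2 was at 0, and 98.5% of the UMIs of S100a8 came from a single cell. The same list summed to 5.07, 189.7 and 54.8 CPM in TAC-2w, TAC-4w and TAC-6w, against 5.98, 194 and 41.0 CPM in Postn-zero fibroblasts. The sham list was therefore set by 1 cell, and the other libraries were alike in both groups.

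Of 6 macrophage markers, 6, 6, 4 and 6 were detected in Postn-positive fibroblasts, with sums of 137, 126, 36.1 and 111 CPM against 175, 154, 116 and 229 CPM in Postn-zero fibroblasts, Lyz2 the most abundant in each library and Adgre1 and Cd68 at 0 in TAC-4w. Of 6 cardiomyocyte markers, 6, 6, 5 and 6 were detected, with sums of 78.2, 90.3, 8.62 and 37.8 CPM against 100.1, 141, 23.2 and 11.1 CPM, Pln being at 0 in TAC-4w. Tnnt2 was the most abundant of them at 21.4 CPM in sham and 3.13 CPM in TAC-4w, Myh6 at 32.3 CPM in TAC-2w and Actc1 at 12.3 CPM in TAC-6w. TAC-6w was the single library in which cardiomyocyte transcripts were higher in Postn-positive fibroblasts.

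Of 6 pericyte and smooth muscle markers, 6, 6, 5 and 6 were detected, with sums of 56.5, 48.5, 213 and 18.8 CPM against 40.1, 54.7, 174 and 25.4 CPM. Rgs5 was the most abundant in TAC-4w at 104 CPM, Myh11 was at 0 there, Myh11 led in sham at 21.6 CPM, and Abcc9 led in TAC-2w at 18.9 CPM and in TAC-6w at 3.99 CPM. B cell markers summed to 1.61, 2.67, 35.3 and 28.3 CPM against 2.46, 1.39, 33.0 and 57.9 CPM, with Igkc the most abundant in each library, Cd79a and Ly6d at 0 in sham and Ms4a1 at 0 in TAC-2w. Endothelial markers were detected for 6, 6, 6 and 4 of 6 genes, Cldn5 and Tie1 being at 0 in TAC-6w, and led by Kdr at 2.68 CPM in sham. Schwann cell and mesothelial markers each summed to less than 10 CPM in Postn-positive fibroblasts of each library, the highest sum in Postn-zero fibroblasts being 14.6 CPM for mesothelial markers in TAC-4w, with 3, 4, 5 and 4 of 6 Schwann cell markers and 5, 0, 4 and 6 of 6 mesothelial markers at 0. The part of these transcripts in the differences between groups was not tested.

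The Postn-positive fibroblasts of each TAC library were then set against those of sham. In TAC-2w, 32 of 9404 genes were at least 2-fold higher (0.34%) and 36 at least 2-fold lower (0.383%), the fewest of the 3 libraries. In TAC-4w, 351 of 9139 were higher (3.84%) and 554 lower (6.06%), and in TAC-6w, which by the labels alone shares the batch of sham, 210 of 9236 were higher (2.27%) and 438 lower (4.74%). The 3 comparisons share the sham library.

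At 2 weeks the genes with the largest and smallest ratios came from few cells. Car3, a carbonic anhydrase of fat and muscle, was 7.73 against 0.268 CPM, with all 58 UMIs in 1 cell. Spp1, the matricellular protein osteopontin, was 8.40 against 0.937 CPM in 7 cells, and Coch, encoding the matrix protein cochlin, was 8.27 against 2.01 CPM in 3 cells. Mtus2, a microtubule-associated protein, was 8.80 against 2.14 CPM in 27 cells, and the histone gene Hist1h1b 9.60 against 2.01 CPM in 5 cells. The lowest were Saa3 at 0 against 6.83 CPM, at least 17.1-fold lower with 3 UMIs as the floor over the group, and the neutrophil genes Ngp, Chil3, S100a8 and Ltf, whose sham UMIs came at 98.5 to 100% from 1 cell. No named gene of this comparison was spread over many cells apart from Mtus2.

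Some matrix genes were higher at 2 weeks. Cilp was 1.49 (1.43 to 1.56) times its sham level, Col8a1 1.41 (1.36 to 1.47) times and Ccn2 1.41 (1.36 to 1.45) times, while Thbs4 was 2.55 (2.12 to 3.07) times. Fmod was 2.34 (1.78 to 3.10) times its sham level. The matricellular list had 3 of 24 genes at least 2-fold higher, namely Thbs4, Spp1 and the elastin gene Eln, beside 0.34% of all genes, and none lower, with a median of 1.15, against 1.01 for all genes. Acta2 was 0.323 (0.289 to 0.361) times its sham level, of which 1 cell held 47.6%, whereas the share of cells with an Acta2 UMI was not smaller, at 27.0% against 21.9%.

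At 4 weeks Gdf10 was 538 against 14.1 CPM, 38.3 (31.2 to 47.5) times the sham level, and was held by 50 of the 85 cells. Comp was 2869 against 90.8 CPM, also in 50 cells, and Gprin3, named for G protein-regulated neurite outgrowth, was 52.5 against 0.402 CPM in 23 cells. Rgs5, a signalling regulator of pericytes, was 104 against 3.48 CPM in 15 cells, and Sult1e1, an estrogen sulfotransferase, 47.0 against 0.669 CPM in 5 cells. All 5 genes were also above sham in Postn-zero fibroblasts of TAC-4w, Gdf10 at 188 against 21.0 CPM, Comp at 522 against 30.7, Rgs5 at 42.7 against 1.76, Sult1e1 at 22.7 against 2.27 and Gprin3 at 5.94 against 0.0782 CPM. Myh11, Myl7, C1qc, Tcap and Cx3cr1, markers of smooth muscle, atrial muscle, macrophages, striated muscle and macrophages, had 0 UMIs in Postn-positive fibroblasts of TAC-4w against 11.1 to 21.6 CPM in those of sham, where 1 cell held 59.0% of the Myh11 and 60.0% of the Myl7 UMIs. In Postn-zero fibroblasts of TAC-4w Myh11 and C1qc were also at 0, Myl7 and Tcap were 0.540 and 1.08 CPM, and Cx3cr1 was 45.4 CPM, above the 12.5 CPM of sham.

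The lists at 4 weeks had more genes on either side. In the Wnt list 6 of 16 were at least 2-fold higher, namely Wnt5a, Sfrp1, Sfrp2, Sfrp4, Frzb and Dkk3, and Wnt11 was lower. The median of this list was 1.84, against 1.49 over the same genes in Postn-zero fibroblasts. Sfrp2, a secreted Wnt modulator, was 462 against 95.7 CPM. Small proteoglycans had 4 of 8 higher, namely Lum, Fmod, Omd and Prelp, with a median of 2.06 against 0.985 for all genes. Over the same proteoglycan genes in Postn-zero fibroblasts the median was 1.52. Resident fibroblast genes had 7 of 18 lower, among them Pi16 at 707 against 1937 CPM and Dpep1 at 223 against 575 CPM. Their median was 0.733, close to the 0.753 over the same genes in Postn-zero fibroblasts. Activation markers had Fap, Cthrc1, Runx1 and Ltbp2 higher and Acta2 lower of 10. The median of these markers was 1.62, against 1.94 over the same genes in Postn-zero fibroblasts. Cthrc1 was 5.19 times its sham level in Postn-positive and 11.9 times in Postn-zero fibroblasts, and Ltbp2 3.85 and 16.1 times. Runx1, a transcription factor, was 215 against 23.6 CPM. Igf1 was 0.436 (0.367 to 0.515) times and Col15a1 0.412 (0.366 to 0.463) times its sham level.

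At 6 weeks Thbs4, Cilp and Col8a1 were at the highest level of the 4 libraries. Thbs4 was 207 against 21.8 CPM, 9.49 (8.04 to 11.3) times the sham level, and was found in 114 cells. Cilp was 2.42 (2.32 to 2.53) times, Col8a1 2.21 (2.14 to 2.29) times, Ccn2 2.11 (2.05 to 2.18) times and Ltbp2 2.55 (2.31 to 2.82) times its sham level. Of 24 matricellular genes 6 were at least 2-fold higher, namely Thbs4, Ccn2, Cilp, Comp, Spp1 and Smoc2, and Ccn3 and Fbln1 were lower, with a median of 1.24 against 0.947 for all genes. The Cilp ratio in Postn-zero fibroblasts was 1.86 and that of Thbs4 was 3.52, so that both genes were higher in either group of TAC-6w.

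Other named genes of the 6-week comparison were Acta1, the skeletal actin re-expressed by stressed cardiomyocytes, at 20.7 against 0.268 CPM in 47 cells, and Spp1 at 20.9 against 0.937 CPM in 19 cells. Tmem255b, encoding a membrane protein, was 12.5 against 1.07 CPM in 44 cells, whereas it was 0.825 and 0.547 CPM in Postn-zero fibroblasts. Igkc, an immunoglobulin chain, was 19.0 against 0.937 CPM, and in TAC-6w Postn-zero fibroblasts it was higher, at 34.1 CPM. The lowest were Prxl2a, at least 13.9-fold lower, Saa3, at least 12.0-fold lower, and the neutrophil genes Camp, Ngp and Chil3, whose sham UMIs came mainly from 1 cell. The 6 cardiomyocyte markers together went the other way, at 37.8 CPM against 78.2 CPM in sham.

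Within the TGF-beta list at 6 weeks, Tgfb1, Ltbp2, Ltbp4 and Ccn2 were at least 2-fold higher and Smad6, Smad7 and Bambi, which encode inhibitors of the pathway, at least 2-fold lower, of 27 genes. Tgfb1 was 213 against 96.0 CPM, 2.22 (2.02 to 2.45) times, and Ltbp4, which holds latent TGF-beta in the matrix, was 2554 against 1159 CPM. Smad7 was 77.6 against 167 CPM, 0.464 (0.414 to 0.519) times, and Smad6 was 7.78 against 30.8 CPM, 0.253 (0.177 to 0.354) times. In Postn-zero fibroblasts the same ratios were 1.85 for Tgfb1, 2.10 for Ltbp4, 0.722 for Smad7 and 1.35 for Smad6. Tgfb1 and Ltbp4 were thus higher in both groups of fibroblasts, whereas the ligand Inhba was 1.07 (0.927 to 1.22) times its sham level in Postn-positive and 0.586 times in Postn-zero fibroblasts, and Smad6 was on opposite sides of its sham level in the groups, a difference that was not tested.

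Part of the complement and chemokine genes were lower at 6 weeks. Of 10 complement genes, C2, C3, C4b, C7, Cfb and Cd55 were at least 2-fold lower, with a median of 0.466, against 0.773 over the same list in Postn-zero fibroblasts. C3 was 0.424 (0.400 to 0.450) times its sham level in Postn-positive and 1.23 times in Postn-zero fibroblasts. Of 20 genes for chemokines, cytokines and growth factors, Ccl7, Ccl8, Ccl11, Ccl19, Cxcl1, Cxcl12 and Il33 were at least 2-fold lower and Cxcl14 higher. Il33, an alarmin cytokine, was 18.2 against 77.1 CPM, and Cxcl14 was 154 against 71.5 CPM. The 14 cell cycle genes summed to 193 against 109 CPM in Postn-positive and to 64.9 against 88.4 CPM in Postn-zero fibroblasts. Top2a, at 23.2 against 2.81 CPM, was among them and came from 15 of 611 cells.

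The same transcripts were counted in the heart sections, whose capture spots each cover several cells. Postn was 23.8 CPM over all spots of the sham section, 15.1 in TAC-2w, 35.2 in TAC-4w and 106 in TAC-6w. The ratio to sham was 0.635 (0.570 to 0.708), 1.48 (1.34 to 1.64) and 4.46 (4.10 to 4.86). Spots with at least 2 Postn UMIs were 6.50% of 1676, 5.77% of 2063, 13.0% of 1228 and 42.7% of 2193. TAC-6w was the highest by each measure and TAC-2w the lowest. In a section, more Postn-positive cells and more Postn RNA per cell cannot be told apart. By the labels the sham and TAC-2w sections shared batch 1, TAC-4w was batch 2 and TAC-6w was batch 3, so that batch and time cannot be told apart for the later sections.

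**Figure D5:**
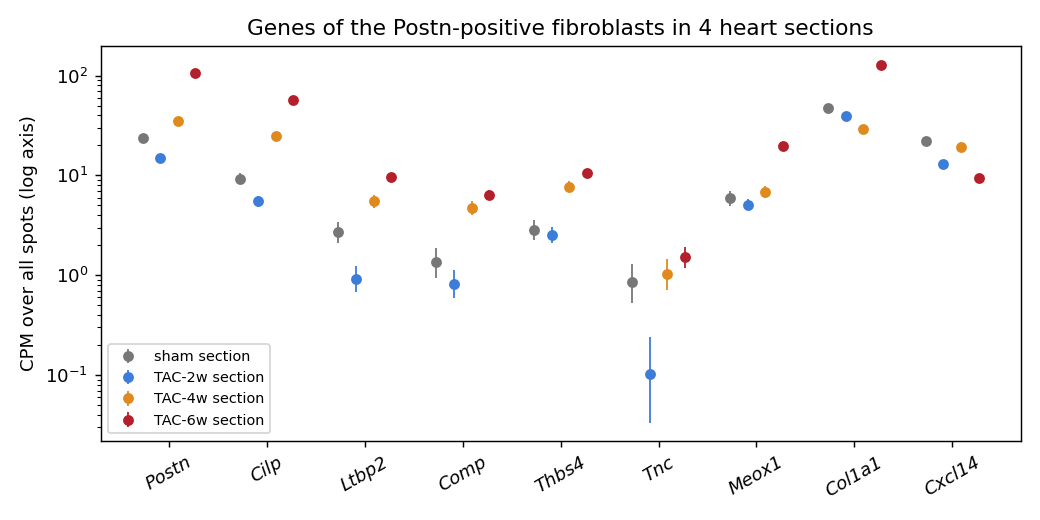
Levels over all spots (vertical axis, CPM on a log axis) in the 4 heart sections for genes of the Postn-positive fibroblasts. Points are summed levels and bars exact Poisson 95% intervals. Postn, at 23.8, 15.1, 35.2 and 106 CPM, and Cilp, at 9.27, 5.52, 25.1 and 57.5 CPM, share the order TAC-2w, sham, TAC-4w, TAC-6w.

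Cilp followed the order of Postn over the sections, at 9.27, 5.52, 25.1 and 57.5 CPM. Ltbp2 was 2.69, 0.923, 5.51 and 9.71 CPM and Comp 1.35, 0.820, 4.73 and 6.36 CPM, in the same order. Tagln, at 26.0, 15.2, 19.0 and 19.1 CPM, was highest in sham. Thbs4 was 2.85, 2.52, 7.67 and 10.6 CPM. Cthrc1 gave 2, 3, 2 and 15 UMIs and Tnfrsf11b 1, 1, 5 and 6, too few for an order.

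Spots with at least 2 Postn UMIs were also compared with spots of the same section that had none. Of 9975, 11045, 10702 and 11653 genes, 2.57%, 1.4%, 1.78% and 0.618% were at least 2-fold higher in the Postn spots of the 4 sections. Of the 12 named higher genes, those with at least 50 UMIs in these spots numbered 6, 4, 8 and 10, and 3, 2, 7 and 2 of them were. Cilp had ratios of 11.1 (8.33 to 14.8), 9.46 (7.09 to 12.6), 8.53 (7.25 to 10.1) and 2.74 (2.41 to 3.12). Ltbp2 had 12.7, 11.2, 12.1 and 1.57, and Comp had 6.98, 3.41, 10.0 and 0.518 (0.401 to 0.673). Cilp, Ltbp2 and Comp were thus several times higher in Postn spots of the first 3 sections, with smaller ratios in TAC-6w, where the reverse held for Comp, although Comp in sham and both Comp and Ltbp2 in TAC-2w had fewer than 50 UMIs. Over all 12 genes, also those with fewer than 50 UMIs, the interval of the ratio lay above 1 for 8, 7, 9 and 5 genes. Among those with at least 50 UMIs it did so for 5, 3, 8 and 5. It lay below 1 for Comp in TAC-6w.

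The 8 named lower genes had median ratios of 1.13, 1.21, 0.935 and 0.882 in the same spots, closer to 1 than in the cells, and 5, 5, 3 and 1 of the 8 lay above 1. The interval lay above 1 for 1 gene in sham and 2 in TAC-2w, and below 1 for Inmt in TAC-4w, at 0.764 (0.587 to 0.982), and for Cxcl14 in TAC-6w, at 0.453 (0.365 to 0.562), and Aox3 gave 5 to 7 UMIs in a section. Postn spots were deeper than spots without Postn, at a median of 24374 against 13010 UMIs in sham, 26589 against 24081.5 in TAC-2w, 33407 against 25990 in TAC-4w and 31795 against 7148.5 in TAC-6w. The depth gap was widest in TAC-6w, and its part in these ratios was not tested.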

How the data were processed

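Single-cell libraries and spatial sections of mouse hearts were read as the counts of UMIs per gene and barcode that the authors deposited without normalisation. Per the file headers they were made with cellranger 6.0.0 and spaceranger 1.2.0, while the submitters' processing notes list Cell Ranger 7.0.0, Space Ranger 1.3.1 and mm10. The methods name kits of both ends of the transcript.

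Members, comparisons and gene lists were chosen with earlier results of these data known. Counts were summed over cells, in CPM, with NumPy 2.4.6 and SciPy 1.17.1 under Python 3.11.15, besides pandas 2.3.3 and matplotlib 3.10.9. A gene was compared with at least 50 UMIs in the sum of both groups, and 0 UMIs were ranked as 3. Named genes were the 12 highest and 8 lowest by mean log2 ratio, libraries weighted equally, on the same side of 1 in each of the 4 libraries, and the 5 largest and 5 smallest TAC to sham ratios, genes with 0 UMIs first, ordered by their sham count. Of the 12, 1 is not reported here. Thbs4, the genes shared by all libraries and the list genes described besides were picked after their values were seen. Doublets were not removed, except in an alternative without the 3.2% of cells with the highest Scrublet score (scanpy 1.11.5). Intervals and ratios were tested on simulated Poisson counts with the gene totals of the sham library. Those counts hold no clustering of UMIs in single cells, so the intervals were not tested for it. Alternatives varied depth, thresholds, filters, totals, scaling, cell weights and libraries.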

Additional observations from a re-analysis of the deposited data

Results flagged for a closer look

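For 6 list genes the ratio of Postn-positive to Postn-zero fibroblasts passed 2-fold in opposite directions in different libraries, and the difference between libraries was not tested for any of them. Acta2, the smooth muscle actin, had a ratio of 3.10 in sham and 8.31 in TAC-6w but 0.465 in TAC-4w. Without the highest cell of each group these ratios were 2.07, 5.01 and 0.656. The chemokine gene Ccl7 had 5.50 in TAC-4w and 0.283 in TAC-6w, the TAC-4w UMIs coming from 6 cells. Cytl1, a secreted protein of cartilage, had 3.17 in sham and 0.387 in TAC-4w. The TGF-beta family ligand gene Gdf10 had 2.86 in TAC-4w and 0.191 in TAC-6w. Myh11, the smooth muscle myosin, had 2.46 in sham and 0.358 in TAC-2w, with 59.0% of its sham UMIs in 1 cell. The inhibitory Smad6 had 2.565 in sham and 0.480 in TAC-6w.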

How the results depend on the processing

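No paired analysis was possible because each condition had 1 library and 1 section. The share of Postn-positive cells relative to sham moved with the treatment of depth. With cells thinned to 2000 UMIs before the rule it was 1.18 in TAC-4w and 3.04 in TAC-6w, with thinning inside the gate 1.00 in TAC-2w and 2.12 in TAC-6w, and among cells of 5000 to 10000 UMIs 0.972, which reversed the TAC-2w direction, 1.07 in TAC-4w and 4.18 in TAC-6w. Genes at least 2-fold higher and lower in all libraries were 5 and 3 after thinning, 24 and 23 with a minimum of 20 UMIs, 8 lower with a minimum of 100, 21 lower with at least 5 Postn UMIs per member and 61 lower among cells of 5000 to 10000 UMIs, where only sham and TAC-6w had enough cells. Leaving out each library in turn gave 14 to 76 higher and 14 to 54 lower genes, the upper values without TAC-4w. Fmod had a mean log2 ratio of -0.58 among cells of 5000 to 10000 UMIs, the single direction lost among 300 such values of named genes. None of the 210 values of genes named for TAC against sham lost its direction, but values with at most 3 UMIs in both groups were left out. Without the highest cell, this left out Car3, Coch, Ngp, Chil3 and Ltf in TAC-2w and Ngp and Chil3 in TAC-6w. These genes rested mainly on 1 cell, and their direction without it was not assessed.

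Genes at least 2-fold higher and lower than in sham members were 121 and 91 in TAC-2w, 616 and 844 in TAC-4w and 367 and 690 in TAC-6w with a minimum of 20 UMIs. With a minimum of 100 UMIs they were 10 and 23 in TAC-2w and 212 and 364 in TAC-4w, and 268 were lower in TAC-6w. Among cells of 5000 to 10000 UMIs they were 437 and 192 in TAC-6w. The Postn ratio of the sections to sham was 0.543 in TAC-2w, 1.24 in TAC-4w and 3.87 in TAC-6w without mitochondrial and ribosomal-RNA-like genes in the total. Leaving out the highest cell of each gene was chosen after seeing the data, and gave 12 higher and 19 lower genes in all libraries. TAC-4w rests on 85 cells and single genes there on fewer, such as 2 for Ccl11, and TAC-6w on the shallowest fibroblasts.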

Other observations

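Levels of 3 receptor genes complete those given above. Agtr1a, the angiotensin II receptor, stayed at 0.569 to 1.33 CPM in Postn-positive fibroblasts of the 4 libraries, so that its difference from 0.825 to 2.16 CPM in Postn-zero fibroblasts was not detectable at this depth. Npr3, the natriuretic peptide clearance receptor, was 8.30, 7.07, 3.13 and 0.759 CPM in Postn-positive and 11.7, 15.3, 11.3 and 3.85 CPM in Postn-zero fibroblasts of sham and the TAC libraries in order of time. Npr3 was lower in the Postn-positive cells of each library and lowest in TAC-6w in both groups. Its TAC-4w and TAC-6w values in Postn-positive fibroblasts rest on few UMIs. Tnfrsf12a, the TWEAK receptor, was 110.2, 94.9, 150.5 and 163 CPM against 51.9, 35.4, 40.0 and 72.6 CPM, and was at least 2-fold higher in each library.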
